A study of Mus musculus with 12 samples.

Results

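The mitosis and spindle genes described here are 40 genes that dividing cells switch on as they approach and pass through mitosis. They were taken as the 40 genes of the raw count table whose Ensembl identifiers map to a fixed list of mouse symbols, out of 48526 genes in the table. The list was fixed by symbol and not by a rule on measured values, but it was chosen with earlier results of these data known. All 40 were found and all 40 passed the filter on low counts, so the descriptions below cover the whole list. RNA was sequenced from bone marrow-derived macrophages (BMDMs), which are macrophages grown in culture from whole marrow with macrophage colony-stimulating factor, of 3 female C57Bl/6J mice. On day 7, BMDMs from every mouse received no treatment or 16 hr of 100 pg/mL IL-4, 100 ng/mL Wnt3a, or both at these doses. The 2 count columns of Wnt3a-treated cells share reads within each mouse, and were therefore separated into the difference, found by subtracting the Wnt3a+IL-4 counts from those of Wnt3a, and the remainder, found by subtracting that difference from the Wnt3a+IL-4 counts. Both come from Wnt3a-treated cells, and the labels do not say which of them also received IL-4. With the untreated and IL-4 libraries this gave 12 libraries in 4 groups of 3 mice, with totals between 13342492 and 17453377 counts.

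Entry into mitosis is driven by cyclin-dependent kinase 1 bound to cyclin A or B, and the kinases Aurora A, Aurora B and Polo-like kinase 1 then build the spindle and attach it to the centromeres. The spindle assembly checkpoint holds the anaphase-promoting complex until every chromosome is attached, and kinesins and the central spindle carry the cell through division. Most of these genes are transcribed late in the cell cycle, when FOXM1 and B-MYB act with the MuvB core on promoters that the same core keeps silent in resting cells as part of the DREAM complex. Macrophages grown with colony-stimulating factor include cells that still divide in culture, and IL-4 is known as a stimulus for macrophage proliferation in tissues.

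The letters that MuvB and NF-Y are known to bind stood in the promoters of many members. Promoters are shown for 5 of the 10 genes followed most closely below, to let these letters be seen. These were chosen because TTTGAA or TTCGAA stood, on either strand, in the 250 bases before the start. *Ccnb1*, *Plk1* and *Birc5*, also among the 10, had an entry but no such match there and are not shown. RefSeq promoters on GRCm38.p6 were found for 33 of the 40 members, as 35 sequences. *Aurkb*, *Ccna2*, *Cdc25c*, *Foxm1*, *Kif20a*, *Pbk* and *Tpx2* had no entry in the table used. Each sequence below is the 250 bases before the RefSeq start of the gene, read 5′ to 3′ on the gene's own strand. The GENCODE gene starts of *Mki67*, *Cdk1* and *Cdc20* differ from it, at 135716361, 69352938 and 118437352. The windows of *Cdk1* and *Cdc20* therefore reach into the gene as GENCODE places it. Capitals mark the letters of the cell cycle homology region (TTTGAA or TTCGAA) and of the NF-Y box (CCAAT), each on either strand. The windows are chr7:135716380-135716629 on the minus strand for *Mki67*, chr11:99024190-99024439 on the minus strand for *Top2a*, chr10:69352913-69353162 on the minus strand for *Cdk1*, chr4:118437344-118437593 on the minus strand for *Cdc20* and chr2:118597961-118598210 on the plus strand for *Bub1b*.
Mki67: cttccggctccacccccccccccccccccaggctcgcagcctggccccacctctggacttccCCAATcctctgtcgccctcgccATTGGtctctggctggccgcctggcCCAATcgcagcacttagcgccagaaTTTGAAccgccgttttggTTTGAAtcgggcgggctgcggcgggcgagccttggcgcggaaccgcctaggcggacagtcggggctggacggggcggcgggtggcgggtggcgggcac
Top2a: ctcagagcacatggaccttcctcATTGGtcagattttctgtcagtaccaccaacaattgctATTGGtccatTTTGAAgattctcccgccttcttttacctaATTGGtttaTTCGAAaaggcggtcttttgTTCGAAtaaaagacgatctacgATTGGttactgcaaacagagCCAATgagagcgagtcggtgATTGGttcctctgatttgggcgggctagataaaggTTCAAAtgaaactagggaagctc
Cdk1: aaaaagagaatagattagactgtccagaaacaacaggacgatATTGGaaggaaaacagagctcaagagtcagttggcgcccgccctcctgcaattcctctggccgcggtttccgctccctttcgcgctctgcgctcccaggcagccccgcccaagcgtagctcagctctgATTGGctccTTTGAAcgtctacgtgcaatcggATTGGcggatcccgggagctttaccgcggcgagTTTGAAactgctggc
Cdc20: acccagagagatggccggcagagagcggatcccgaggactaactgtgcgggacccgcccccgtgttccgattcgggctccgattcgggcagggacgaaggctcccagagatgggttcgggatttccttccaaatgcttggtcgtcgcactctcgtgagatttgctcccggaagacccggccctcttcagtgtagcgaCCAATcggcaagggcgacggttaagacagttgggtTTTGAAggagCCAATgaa
Bub1b: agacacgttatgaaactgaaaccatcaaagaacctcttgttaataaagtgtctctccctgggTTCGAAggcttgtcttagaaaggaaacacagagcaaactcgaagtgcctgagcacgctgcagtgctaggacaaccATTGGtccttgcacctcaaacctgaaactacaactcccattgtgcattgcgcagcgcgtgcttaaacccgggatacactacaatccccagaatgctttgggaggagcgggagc

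Before the start, 13 of the 35 member promoters (37.1%) held the letters of the cell cycle homology region, against 17.1% of all 32851 promoters of the same table. In the whole window, which runs on for 50 bases after the start, 29 of 35 (82.9%) held them, against 19.2% of all promoters. The added matches lay just past the start, where 20 of 35 member promoters (57.1%) had a match within the first 50 bases, against 2.46% of all promoters. NF-Y box letters stood in 28 of 35 (80%) before the start, against 33.8% of all promoters, and 19 of 35 (54.3%) had a match that began in the last 50 bases before it. The letters of E2F sites (TTTCCCGC, TTTCGCGC, TTTGCCGC and TTTGGCGC, either strand) were found before the start in 1 of 35 promoters, that of *Cdk1*, against 1.86% of all promoters. The *Cdk1* match begins 131 bases before the start and no match of one motif fell on another in the sequences shown. A match is a run of letters and not a measured binding site.

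**Figure D1:**
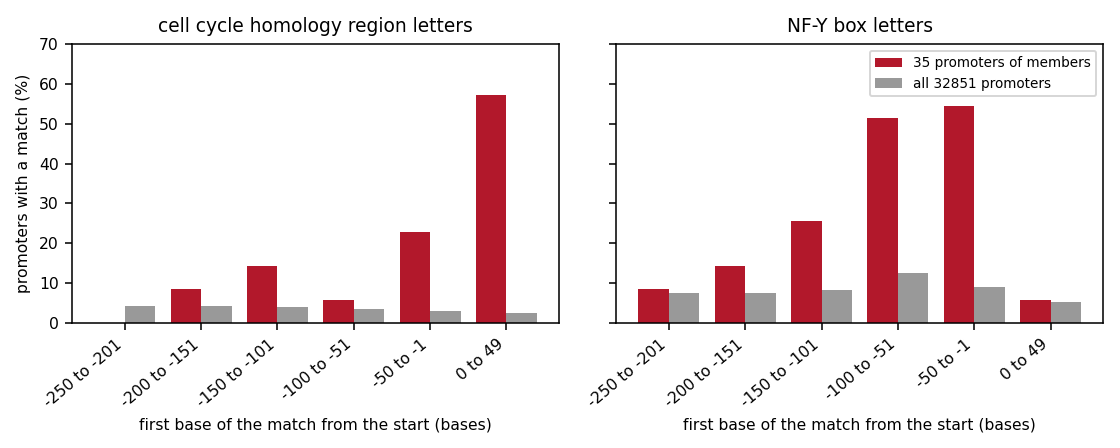
The share of promoters (y axis, %) with a match whose first base falls in each stretch of 50 bases (x axis, bases from the start), for the 35 promoters of members in red and all 32851 promoters in grey. On the left, matches to the letters of the cell cycle homology region reach 57.1% of member promoters in the first 50 bases after the start; on the right, matches to the NF-Y box letters reach 54.3% in the last 50 bases before it.

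The cells expressed macrophage genes at high levels, with *Lyz2* between 34000 and 57300 CPM, *Csf1r* between 4330 and 6150 CPM and *Adgre1* between 2140 and 3230 CPM over the 12 libraries. CPM is the usual depth-scaled count, here after TMM scaling of the library totals. Markers of other marrow cells were low beside these genes, but not all were low beside single mitotic genes. The neutrophil markers *Mmp8* and *S100a9* reached 105 and 25.5 CPM. The 8 progenitor markers summed to between 8.14 and 29.7 CPM, with *Flt3*, *Elane*, *Prtn3*, *Ctsg* and *Myb* at 0 in at least 1 library. The 8 neutrophil markers summed to between 64.5 and 148 CPM, the 8 stromal markers to between 6.18 and 32.6 CPM and the 8 lymphoid markers to between 1.92 and 5.45 CPM, with *Cd8a* and *Ncr1* at 0 throughout. Of the 8 erythroid markers, which summed to between 20.5 and 84.6 CPM, *Tfrc* made up nearly all.

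The 40 members were present in every group at modest levels, and their sum spread widely between mice. The sum was 299.8, 195.9 and 219.8 CPM in the untreated libraries of mouse 1, 2 and 3. With IL-4 it was 381.8, 284.5 and 364.1 CPM. It was 583.5, 210.3 and 227.9 CPM in the difference, and 465.5, 203.6 and 394.9 CPM in the remainder. In each mouse the untreated library held the lowest of its 4 sums, and the highest was the difference in mouse 1, the IL-4 library in mouse 2 and the remainder in mouse 3. In bulk RNA, a larger share of cells in mitosis and more of these transcripts in each dividing cell cannot be told apart.

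The libraries ranked in much the same way for most members. Of the 40 members, 25 were at their highest in the difference library of mouse 1 and 11 in the remainder library of mouse 1, while 18 were at their lowest in the untreated library of mouse 2. Within the difference, mouse 1 was the highest of the 3 mice for 40 of 40 members. Within the remainder, mouse 2 was the lowest for 39. On the log2 scale, centred on each gene's mean over the 12 libraries, the median member stood at 1.09, -0.51 and -0.35 in the difference libraries of mouse 1, 2 and 3 and at 0.66, -0.62 and 0.48 in the remainder libraries. The same medians were 0.03, -0.72 and -0.50 in untreated cells and 0.45, -0.07 and 0.35 with IL-4, and the median over all genes tested stayed between -0.01 and 0.02 in every library. Adjusting each library for the GC content of transcripts, an alternative chosen after seeing the data, left the difference of mouse 1 at 1.06 and the untreated library of mouse 2 at -0.67.

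**Figure D2:**
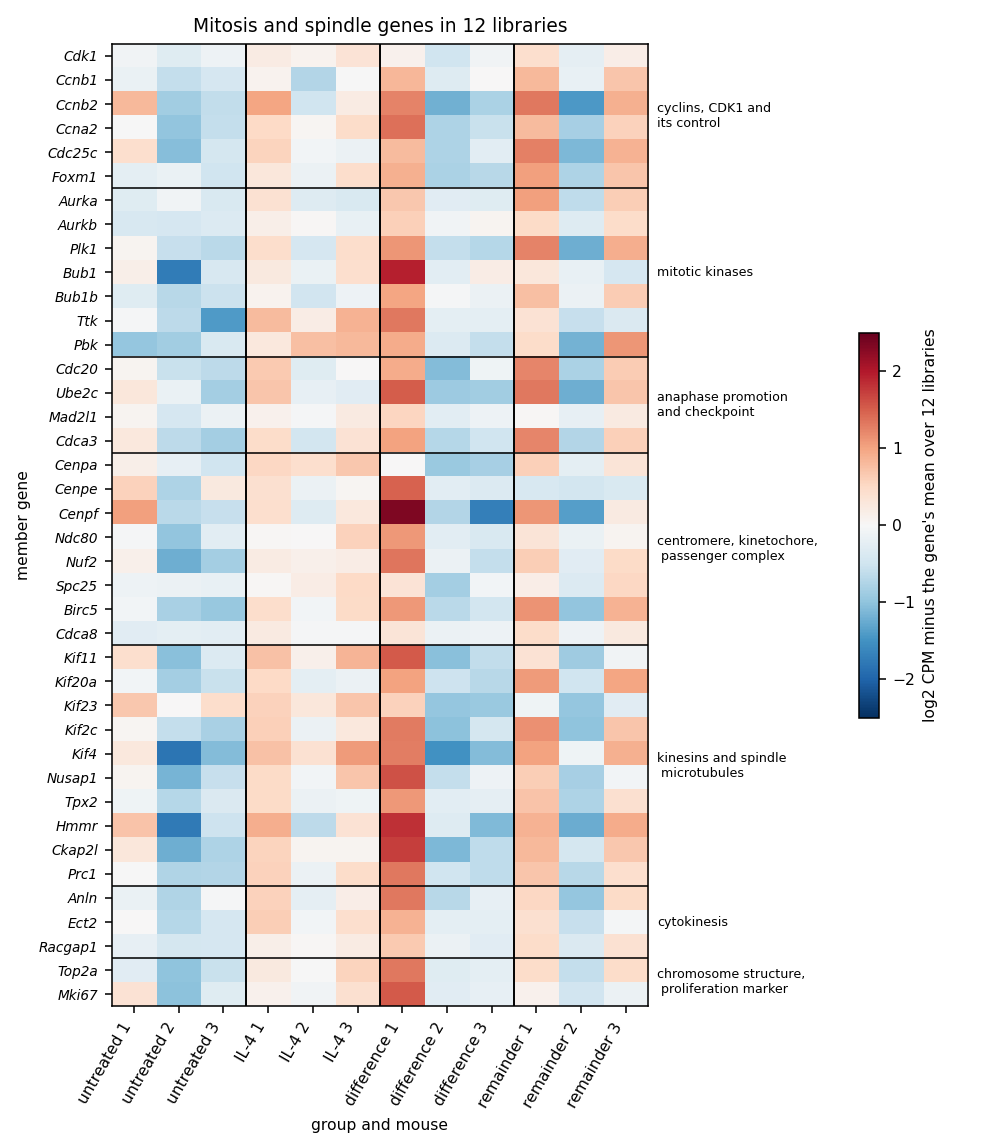
Each row is a member, grouped by role, and each column a library, with colour giving log2 CPM minus the gene's mean over the 12 libraries. The difference library of mouse 1 is red for nearly every member (median 1.09), and the mouse 2 libraries of the untreated group, the difference and the remainder are blue (medians -0.72, -0.51 and -0.62).

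The spread between mice was accordingly wide. The median SD of log2 CPM over the 3 mice was 0.42 for members against 0.16 for all genes tested in untreated cells, and 0.33 against 0.13 with IL-4. It was 0.94 against 0.13 in the difference and 0.66 against 0.17 in the remainder. The biological coefficient of variation estimated by edgeR had a median of 0.37 for members and 0.11 for all genes. From the lowest to the highest library, the median member ranged 4.81-fold and the median gene 1.69-fold. Over the 12 libraries, which come from 3 mice and are not independent, the median Pearson correlation between 2 members was 0.79 across 780 pairs, of which 779 were positive. Members followed the mean of all 40 with a median correlation of 0.91, from 1.00 for *Ccna2* and 0.99 for *Prc1* down to 0.68 for *Cenpa*, 0.62 for *Cenpe* and 0.54 for *Kif23*. The same correlation with the members' mean had a median of 0.69 over 90 other mitosis genes, 0.44 over 36 DNA replication genes, 0.14 over 27 arrest, DREAM and RB genes and -0.26 over 10 macrophage markers.

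Levels can be compared between genes only per length, and the order at the top depended on which length was used. Per kb of all exon bases of a gene, the mean over the 12 libraries was 4.38 CPM for *Ccnb2*, 4.11 for *Cdk1*, 4.10 for *Aurkb* and 4.06 for *Cenpa*. Per kb of the longest coding transcript it was 16.2 CPM for *Cenpa*, 9.99 for *Cdca8*, 6.19 for *Aurkb*, 4.64 for *Cdk1* and 4.38 for *Ccnb2*. The same 4 members were lowest on both lengths. *Cenpf*, a large kinetochore protein gene, had 0.0906 CPM per kb of exon and 0.126 CPM per kb of transcript, and *Cenpe*, *Ttk* and *Cdc25c* lay between 0.192 and 0.321 CPM per kb of exon.

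Among the cyclins and the control of CDK1, *Cdk1* itself, the kinase that drives mitotic entry, had 18.7, 16.2 and 18.3 CPM in the untreated libraries of mouse 1, 2 and 3. It had 22.9, 21.3 and 25.3 CPM with IL-4, 21.4, 14.1 and 18.8 CPM in the difference and 26.8, 17.2 and 22.5 CPM in the remainder. All 3 IL-4 libraries lay above all 3 untreated libraries, whereas the Wnt3a libraries overlapped both. *Cdk1* was one of the steadier members. *Ccnb1*, which encodes cyclin B1, had 2.04, 1.48 and 1.69 CPM untreated, 2.46, 1.34 and 2.31 CPM with IL-4, 4.24, 1.83 and 2.33 CPM in the difference and 4.16, 2.03 and 3.81 CPM in the remainder. Its untreated and remainder values met only between mouse 1 untreated and mouse 2 remainder. Of the 50-base stretches in *Ccnb1* transcripts, 23.4% are shared with another gene, mainly the pseudogene *Ccnb1-ps*, so its counts are uncertain to that extent. *Foxm1*, the transcription factor that activates many of the other members, had 6.56, 6.95 and 5.52 CPM untreated and 9.59, 7.03 and 10.6 CPM with IL-4. In the difference it had 14.7, 4.46 and 4.80 CPM and in the remainder 16.1, 4.55 and 12.8 CPM. Both Wnt3a groups thus reached above and below the untreated range, with mouse 1 above it and mouse 2 below it in both. *Ccnb2* and *Ccna2*, which encode cyclins B2 and A2, and *Cdc25c* were likewise highest in mouse 1 in both Wnt3a groups.

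Of the mitotic kinases, *Bub1b* was the clearest. It encodes BUBR1, which holds back the anaphase-promoting complex at the spindle checkpoint, and lies at chr2:118598211-118641591 (ENSMUSG00000040084, GENCODE annotation of GRCm38). It had 12.2, 9.20 and 10.3 CPM untreated, 15.9, 10.8 and 13.6 CPM with IL-4, 29.9, 14.7 and 13.5 CPM in the difference and 25.5, 13.5 and 23.4 CPM in the remainder. The untreated values overlapped those with IL-4, and all 6 Wnt3a libraries lay above all 3 untreated ones. *Aurkb*, the kinase of the chromosomal passenger complex that corrects spindle attachments (chr11:69045647-69051664, ENSMUSG00000020897), had 8.87, 8.75 and 9.22 CPM untreated. It had 12.9, 11.9 and 10.3 CPM with IL-4, 17.7, 10.99 and 12.2 CPM in the difference and 16.5, 9.34 and 16.1 CPM in the remainder. Every treated library was above every untreated one. *Plk1*, which acts at centrosomes and kinetochores, had 4.84, 3.02 and 2.82 CPM untreated, 6.23, 3.39 and 6.28 CPM with IL-4, 9.96, 2.99 and 2.76 CPM in the difference and 10.9, 1.91 and 8.74 CPM in the remainder. Its treated groups overlapped the untreated one. *Bub1*, a second checkpoint kinase, stood at 10.7 CPM in the difference library of mouse 1 and at no more than 3.61 CPM in the other 11.

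In the group that starts and restrains anaphase, *Cdc20*, the activator of the anaphase-promoting complex, had 6.45, 4.12 and 3.83 CPM untreated, 9.77, 4.92 and 6.13 CPM with IL-4, 11.8, 2.81 and 5.67 CPM in the difference and 14.5, 3.503 and 9.53 CPM in the remainder. The lowest value of both Wnt3a groups, that of mouse 2, lay under all untreated values. Other genes share 10.4% of its 50-base stretches. *Ube2c*, the ubiquitin-conjugating enzyme of the same complex, moved over a wider range, from 2.64 CPM in the remainder of mouse 2 to 18.1 CPM in the difference of mouse 1. *Mad2l1*, which encodes the checkpoint protein MAD2, was steady by comparison, from 7.14 to 13.9 CPM. Of the exon bases of *Ube2c*, 22.8% overlap a gene on the other strand.

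At the centromere, *Birc5*, which encodes the passenger protein survivin, had 5.64, 3.35 and 3.01 CPM untreated, 8.15, 5.69 and 8.37 CPM with IL-4, 12.8, 3.66 and 4.29 CPM in the difference and 13.1, 2.95 and 10.9 CPM in the remainder. All IL-4 values were above all untreated ones, while the difference overlapped the untreated range in mouse 2 and mouse 3 and the remainder of mouse 2 lay just under it. *Cdca8*, which encodes the passenger protein borealin (chr4:124918465-124939311, ENSMUSG00000028873), had 13.2, 13.5 and 13.2 CPM untreated, 18.8, 15.7 and 15.7 CPM with IL-4, 19.9, 14.4 and 14.7 CPM in the difference and 21.99, 14.6 and 19.1 CPM in the remainder. Its untreated values were again close together and under all 9 treated ones. *Cenpa*, the histone H3 variant that marks centromeres (chr5:30666777-30674830, ENSMUSG00000029177), went another way, with 24.8, 19.3 and 15.7 CPM untreated, 32.2, 30.0 and 35.9 CPM with IL-4, 22.4, 11.66 and 12.4 CPM in the difference and 34.0, 18.7 and 28.1 CPM in the remainder. Its difference value was under its untreated value in all 3 mice.

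Among the kinesins and spindle proteins, *Kif23*, named after its values were seen, encodes a kinesin of the central spindle needed for cytokinesis and lies at chr9:61915905-61946774 (ENSMUSG00000032254). It had 15.8, 9.84 and 13.3 CPM untreated, 14.6, 11.9 and 15.9 CPM with IL-4, 14.6, 4.95 and 5.09 CPM in the difference and 9.13, 4.98 and 8.02 CPM in the remainder. All remainder libraries lay under all untreated and IL-4 libraries, while mouse 1 kept the difference overlapping both. Its partner in the centralspindlin complex, *Racgap1*, had 12.7, 10.8 and 11.04 CPM untreated and 20.2, 11.5 and 19.2 CPM in the remainder, overlapping the untreated range only in mouse 2. *Kif4*, a chromosome-binding kinesin, had 2.58, 0.515 and 0.941 CPM untreated and 3.66, 2.81 and 4.62 CPM with IL-4. *Hmmr*, *Ckap2l* and *Nusap1*, microtubule-associated proteins, were all at their highest in the difference of mouse 1, at 9.16, 8.70 and 9.44 CPM.

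*Mki67*, the standard marker of cycling cells, had 21.7, 8.17 and 13.6 CPM untreated, 18.2, 15.9 and 22.2 CPM with IL-4, 49.1, 13.9 and 14.5 CPM in the difference and 18.2, 12.1 and 15.1 CPM in the remainder. The remainder lay within the untreated range for all 3 mice, and the difference of mouse 1 was more than any of the other 11 libraries, the next being 22.2 CPM. *Top2a*, the topoisomerase that untangles sister chromatids, had 19.2, 11.71 and 15.9 CPM untreated, 27.9, 23.5 and 35.0 CPM with IL-4, 58.8, 19.1 and 19.8 CPM in the difference and 32.3, 15.5 and 32.4 CPM in the remainder. Its IL-4 values were above all untreated ones.

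**Figure D3:**
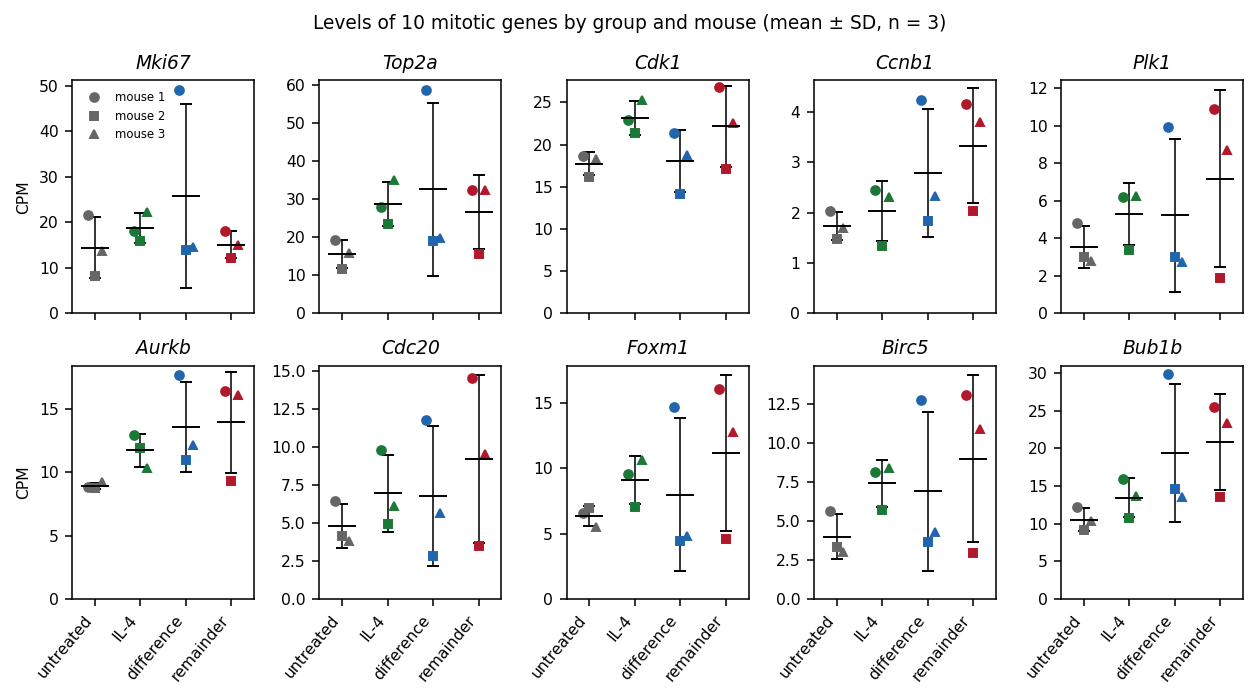
CPM (y axis, from 0) of 10 members in each group (x axis), with circles, squares and triangles for mouse 1, 2 and 3 and bars for the mean ± SD (n = 3 mice). The circle of mouse 1 stands apart in the difference for *Mki67* (49.1 CPM) and *Top2a* (58.8 CPM), and the square of mouse 2 is the lowest point of the remainder in all 10 panels.

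The first comparison asked what IL-4 alone did. The members were higher than in untreated cells by a median log2 fold change of 0.52, against 0.00 over all 12421 genes tested, and 38 of 40 had a positive value. None passed the test (edgeR's quasi-likelihood test with Benjamini-Hochberg adjustment at 0.05), where 3.4% of all genes tested did. At an unadjusted p under 0.05 there were 5 members, and DESeq2 also called 0. With the mouse as replicate block 0 were called, where 3.15% of all genes passed and 2.15% were higher. When the fit held the untreated and IL-4 libraries alone, *Top2a*, *Pbk* and *Cenpa* were called higher (adjusted p = 0.043, 0.03 and 0.043 from edgeR), where 2.46% of all genes were. Without all libraries of mouse 1, *Cenpa* and *Kif4* were called higher, at 0.92 and 2.33, where 1.63% of all genes were. The values of the 2 groups did not overlap for 15 members, where 19.8% of all genes tested had no overlap. In 33 members the IL-4 library was above the untreated one in all 3 mice, and the median was 0.38, 0.58 and 0.83 in mouse 1, 2 and 3.

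By role, the median log2 fold change with IL-4 was 0.70 for the 10 kinesins and spindle proteins, 0.56 for the 7 kinases, 0.51 for the 8 centromere genes, 0.50 for the 3 cytokinesis genes, 0.41 for the 4 anaphase genes and 0.40 for the 6 cyclin and CDK1 genes. The largest values belonged to *Pbk*, a mitotic kinase (log2 fold change 1.48, standard error 0.55, adjusted p = 0.20 from edgeR), *Kif4* (1.41, standard error 0.66, adjusted p = 0.35 from edgeR) and *Ttk* (1.38, standard error 0.53, adjusted p = 0.22 from edgeR). *Top2a* had 0.87 (standard error 0.39, adjusted p = 0.32 from edgeR) and *Cenpa* 0.71 (standard error 0.25, adjusted p = 0.17 from edgeR). *Mki67* had 0.36, with a 95% interval from -0.63 to 1.35.

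Genes of DNA replication act a stage earlier in the cycle. Of 36 in the list, 8 rose with IL-4 and 0 fell, with a median of 0.46, where 2.31% of all genes tested rose and 1.09% fell. Whether they differed from the members was not tested. *Uhrf1*, which maintains DNA methylation at the replication fork, rose by 1.53 (adjusted p = 0.042, edgeR), and *Mcm5*, a subunit of the replicative helicase, by 0.81 (adjusted p = 0.048, edgeR). The smallest called values were 0.47 for *Rrm1* and 0.54 for *Mcm4*. The call of *Mcm5* was lost in the fit with the mouse as replicate block (adjusted p = 0.064 from edgeR). *Mcm6*, another subunit, had 62.1, 67.1 and 72.4 CPM untreated and 92.8, 103 and 102 CPM with IL-4 (adjusted p = 0.00091, edgeR). The growth inputs *Myc* and *Ccnd1*, which encodes cyclin D1, rose by 0.77 and 0.95 (adjusted p = 0.0039 and 0.0051, edgeR). Of the 90 other mitosis genes tested, 0 passed, 11 had an unadjusted p under 0.05 and the median was 0.31. The mitotic activator *Mybl2* had 1.00 (adjusted p = 0.39 from edgeR). *E2f1*, *Cdkn1a* and *Cdkn1b* had 0.12, 0.18 and -0.15 and did not pass, nor did any of the 27 arrest, DREAM and RB genes tested, of which 4 had an unadjusted p under 0.05.

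The second comparison set the difference libraries against untreated cells. Of the 40 members, 1 rose and 0 fell, where 23.2% of all genes tested passed the test (11.8% higher and 11.4% lower). The median log2 fold change was 0.67 and 38 members had a positive value, but it was 1.11, 0.23 and 0.10 in mouse 1, 2 and 3. Without the difference library of mouse 1 the median was -0.15, with 0 members higher and 1, *Kif23*, lower (log2 fold change -1.39, adjusted p = 0.003, edgeR), where 9.25% of all genes were called higher and 8.92% lower. The member called was *Bub1b* (log2 fold change 0.88, standard error 0.29, adjusted p = 0.043, edgeR), higher in 3 of 3 mice by 1.29, 0.66 and 0.39. It was called in 6 of 15 settings that each left out a library or a mouse, and 0 members were called higher without the untreated or IL-4 library of mouse 2 or 3 or the remainder library of mouse 3. With the mouse as replicate block, 5 members rose, *Bub1b*, *Aurkb*, *Top2a*, *Nusap1* and *Bub1*, with log2 fold changes of 0.83, 0.59, 0.97, 1.02 and 1.39, and 10.9% of all genes tested rose in that fit. Values of the groups did not overlap for 3 members, *Bub1b*, *Aurkb* and *Cdca8*, where 39.2% of all genes had no overlap.

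Values against untreated cells in the difference were widest apart for *Bub1*, at 1.48 (95% interval from 0.25 to 2.71, adjusted p = 0.061 from edgeR), and *Kif23*, at -0.65 (from -1.45 to 0.15). *Top2a* had 1.06 (adjusted p = 0.066 from edgeR), *Aurkb* 0.61 (adjusted p = 0.052 from edgeR) and *Mki67* 0.83 (adjusted p = 0.18 from edgeR). *Cdk1* was at 0.03, with an interval from -0.36 to 0.42, and *Cenpa* at -0.36, with an interval from -0.95 to 0.23.

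Of all genes tested, 11.8% rose and 11.4% fell in the difference, to be set beside the counts of each list below. Of the 10 growth input genes, 3 fell and 1 rose, with 4 positive and 6 negative values. *Ccnd1* fell from 21.98, 31.3 and 32.3 CPM to 2.75, 3.11 and 2.98 CPM, a log2 fold change of -3.27 (adjusted p = 1e-07, edgeR). *Myc* fell by 2.36 (adjusted p = 1.6e-07, edgeR), while *Ccne1*, which encodes cyclin E1, rose by 0.88 (adjusted p = 0.0039, edgeR). Every difference library was under every untreated one for *Ccnd1*, mouse 1 with its high mitotic genes included. Of the 36 replication genes, 3 fell and 1 rose, and *Tk1* and *Cdt1* had the lowest values, -0.71 and -0.62 (adjusted p = 0.028 and 0.0031, edgeR), against 0.53 for *Rfc5* (adjusted p = 0.0052, edgeR). Of the other mitosis genes, 6 of 90 rose and 0 fell, led by *Espl1*, the separase that cuts cohesin, at 1.12 (adjusted p = 0.05, edgeR), and *Zwilch*, a kinetochore protein, at 0.97 (adjusted p = 0.02, edgeR), with *Mis12* and *Spdl1* lowest at 0.37 and 0.68. Of 27 arrest, DREAM and RB genes, 5 rose and 3 fell. *Cdkn2b* and *Btg1* were highest at 1.03 and 0.92 (adjusted p = 0.037 and 7.5e-07, edgeR), and *Cdkn1c* and *E2f6* lowest at -2.05 and -0.34 (adjusted p = 0.00019 and 0.02, edgeR). *E2f1*, *Cdkn1a*, *Cdkn1b* and *Mybl2* had -0.10, 0.08, 0.02 and -0.27 and did not pass. The calls of *Cdkn2b* and *Mis12* were lost in the fit with the mouse as replicate block (adjusted p = 0.06 and 0.069 from edgeR).

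**Figure D4:**
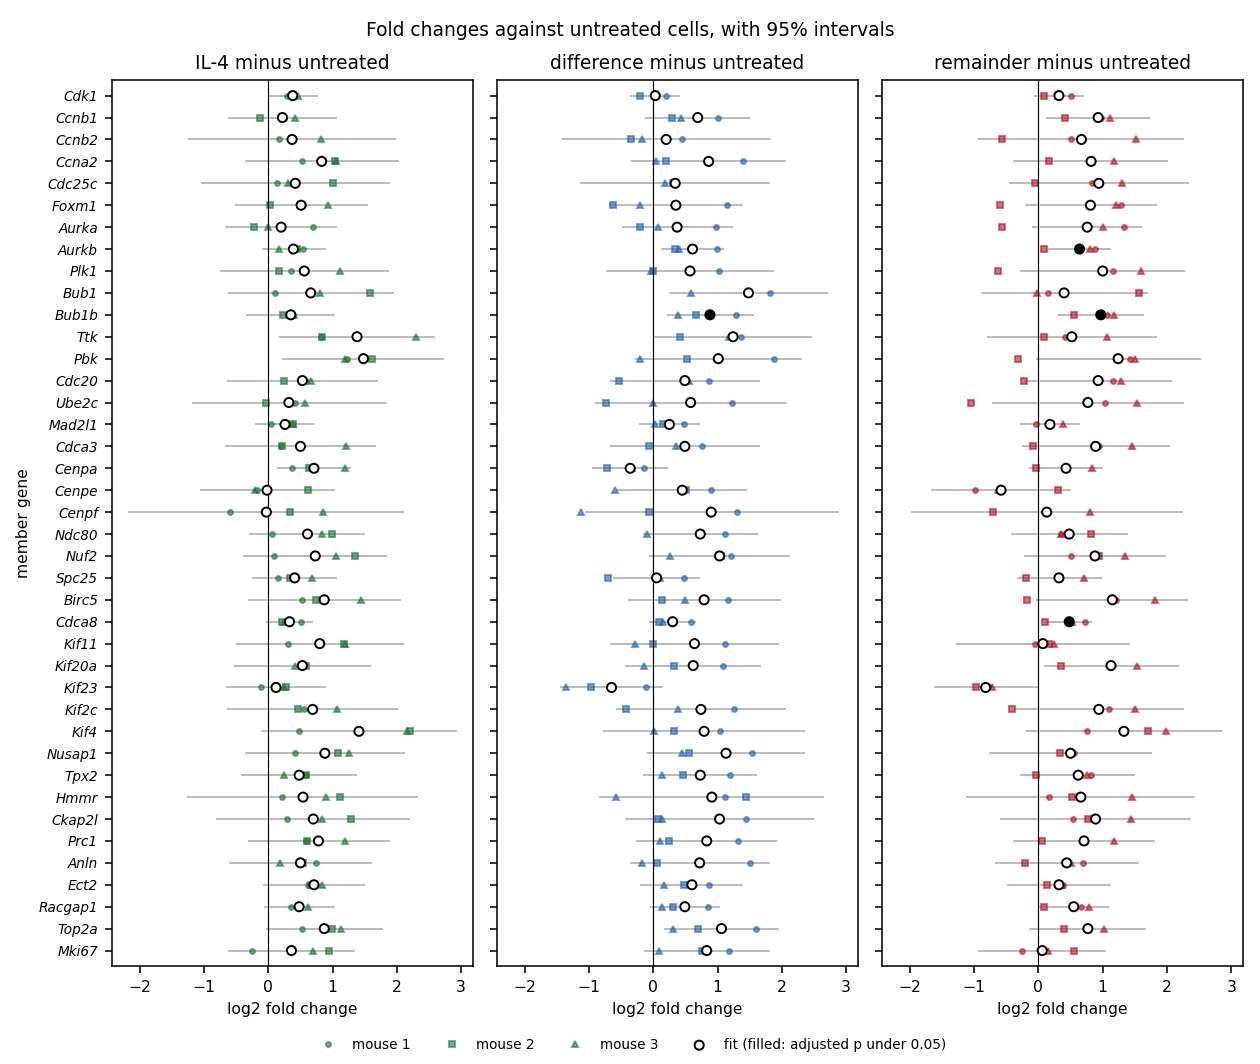
Log2 fold change (x axis) of each member (y axis) against untreated cells for IL-4, the difference and the remainder, with the fitted value as a circle (filled where the adjusted p is under 0.05), its 95% interval as a line and each mouse as a small symbol. No circle is filled for IL-4, *Bub1b* is filled for the difference, and *Bub1b*, *Aurkb* and *Cdca8* are filled for the remainder.

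The third comparison set the remainder libraries against the same untreated libraries, which it shares with the first and the second. Of the 40 members, 3 rose and 0 fell, where 25.3% of all genes tested passed the test, 13.6% of them higher. The median log2 fold change was 0.66, and 0.70, 0.09 and 1.04 in mouse 1, 2 and 3. The 3 members were *Bub1b* at 0.97 (standard error 0.29, adjusted p = 0.025, edgeR), *Aurkb* at 0.64 (standard error 0.21, adjusted p = 0.04, edgeR) and *Cdca8* at 0.48 (standard error 0.16, adjusted p = 0.04, edgeR), each higher in 3 of 3 mice. By role, 2 of the 7 kinases and 1 of the 8 centromere genes were called, and *Birc5*, another passenger complex gene, had 1.15 (adjusted p = 0.12 from edgeR). Together with *Kif23*, they were the 4 members whose values did not overlap between the groups, where 35.6% of all genes had no overlap.

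The number of members called in the remainder depended on single libraries. Without the remainder library of mouse 2 the members called higher were 13, where 15.7% of all genes were, and the median was 1.04. Without all libraries of mouse 2 they were 15, where 15.3% of all genes were. Without all libraries of mouse 3 they were 0, where 6.69% of all genes were. They were also 0 without the untreated library of mouse 2 or 3 or the remainder library of mouse 1 or 3, and 7 without the difference library of mouse 1, where between 10.8% and 13.8% of all genes were called higher. Over 15 settings that each left out a library or a mouse, *Bub1b* was called higher in 10, and *Aurkb* and *Cdca8* in 6 each. With the mouse as replicate block 9 rose, *Bub1b*, *Aurkb*, *Cdca8*, *Ccnb1*, *Cdc20*, *Cdca3*, *Kif20a*, *Birc5* and *Kif4*, where 23% of all genes passed and 12.5% rose, and *Kif23* fell by 0.83 (adjusted p = 0.032, edgeR). Without the block *Kif23* was at -0.82 (standard error 0.35, adjusted p = 0.10 from edgeR), lower in 3 of 3 mice by -0.78, -0.97 and -0.72. Higher values that were not called without the block were those of *Kif4* at 1.33 (95% interval from -0.20 to 2.85), *Pbk* at 1.24 (from -0.04 to 2.53), *Birc5* at 1.15 (from -0.03 to 2.33) and *Kif20a*, a kinesin of the late spindle, at 1.13 (from 0.08 to 2.18). *Plk1* had 1.00, *Ccnb1* and *Cdc20* 0.93 each, *Foxm1* 0.81 and *Top2a* 0.77, while *Cdk1* had 0.32 and *Mki67* 0.06.

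Of the other mitosis genes, 10 of 90 rose in the remainder and 0 fell. *Espl1* rose by 1.76 (adjusted p = 0.0033, edgeR), from 4.999, 3.22 and 2.88 CPM to 17.8, 6.33 and 13.9 CPM, with no overlap. *Melk*, a kinase of cycling cells, rose by 1.29 (adjusted p = 0.046, edgeR) but was higher in 2 of 3 mice, and the smallest called values were 0.58 for *Spdl1* and 0.74 for *Nsl1*. Of the replication genes, 5 of 36 rose, led by *Pole*, the catalytic subunit of a replicative polymerase, at 1.23, and *Uhrf1* at 1.19 (adjusted p = 0.048 and 0.036, edgeR), and *Rrm1* at 0.36 and *Chaf1a* at 0.77 were the lowest of those called. *Ccnd1* and *Myc* fell by 1.71 and 0.87 (adjusted p = 1e-05 and 0.00036, edgeR), and *Ccne1* rose by 1.13 (adjusted p = 0.00047, edgeR). Of the arrest, DREAM and RB list 5 rose and 5 fell. *Cdkn2b*, which encodes the CDK4 and CDK6 inhibitor p15, and *E2f8* were highest at 1.41 and 0.82 (adjusted p = 0.0045 and 0.016, edgeR), and *Cdkn1c* and *Btg2* lowest at -1.66 and -0.59 (adjusted p = 0.00073 and 1.1e-05, edgeR). *Cdkn1a*, which encodes p21, rose by 0.52 (adjusted p = 0.045, edgeR) and *Cdkn1b*, which encodes p27, fell by 0.31 (adjusted p = 0.036, edgeR). *E2f1* had 0.04 and *Mybl2* 0.49, and neither passed. The calls of *Melk*, *Cdkn1a* and *Cdkn1b* were lost in the fit with the mouse as replicate block (adjusted p = 0.059, 0.055 and 0.066 from edgeR).

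The progenitor marker sum was lowest in mouse 2 of the remainder, as the members were, at 24.7, 9.65 and 20.4 CPM in mouse 1, 2 and 3. It was 18.5, 9.59 and 8.14 CPM in the difference and 29.7, 23.2 and 20.1 CPM in untreated cells. Most of it was *Cd34*, at up to 25.3 CPM, while *Mpo*, *Elane*, *Prtn3* and *Ctsg* reached no more than 1.16 CPM. The 4 tested progenitor markers did not move as 1 group, with 2 positive and 2 negative values in both comparisons with untreated cells. In the difference *Cd34* and *Kit* fell by 1.25 and 0.67 and *Prtn3* rose by 1.86 (adjusted p = 0.043, 0.034 and 0.042, edgeR), and in the remainder *Kit* fell by 1.20 (adjusted p = 0.001, edgeR). The call of *Prtn3*, a gene near the floor, was lost in the fit with the mouse as replicate block (adjusted p = 0.056 from edgeR). Of the 6 tested neutrophil markers, 1 rose and 1 fell in the difference and 1 rose and 4 fell in the remainder. Of the 10 macrophage markers, 4 rose and 1 fell in the difference and 2 rose in the remainder. The part of these cells in the members' levels was not tested.

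The remainder and the difference both come from Wnt3a-treated cells and differ by IL-4, in a direction that the labels leave unstated. No member passed the test between them, where 5.25% of all genes tested did (2.87% higher and 2.38% lower), and 2 members had an unadjusted p under 0.05. The median log2 value of the remainder over the difference was 0.05, and -0.33, -0.16 and 0.76 in mouse 1, 2 and 3, so the mice went in opposite directions. Without the difference library of mouse 1 the median was 0.73. *Cenpa* had 0.79 (95% interval from 0.20 to 1.37, adjusted p = 0.097 from edgeR) and was higher in the remainder in 3 of 3 mice, by 0.60, 0.68 and 1.17. It was called with the mouse as replicate block (0.81, adjusted p = 0.035, edgeR), where 4.48% of all genes were called and 2.48% were higher, and by DESeq2 (adjusted p = 0.027). The lowest values were those of *Bub1* at -1.08 (from -2.28 to 0.12), *Cenpe*, the kinesin that aligns chromosomes, at -1.03 (from -2.09 to 0.03), and *Mki67* at -0.78 (from -1.76 to 0.20). *Cenpe* was the 1 member with no overlap, where 22.4% of all genes had none. Among the other lists, *Ccnd1* and *Myc* were higher in the remainder by 1.56 and 1.49 (adjusted p = 0.00075 and 9.7e-05, edgeR). Of the other mitosis genes *Psrc1* and *Wee1* were higher by 1.03 and 0.65 and *Ckap5* was lower by -0.85 (adjusted p = 0.04, 0.049 and 0.016, edgeR). Of the replication genes *Tk1* and *Rfc5* were higher by 0.87 and 0.44 (adjusted p = 0.03 and 0.042, edgeR), and of the arrest list *Lin9*, *Btg1* and *Btg2* were lower by -0.61, -0.42 and -0.35 (adjusted p = 0.046, 0.0037 and 0.0049, edgeR). *E2f1*, *Cdkn1a*, *Cdkn1b* and *Mybl2* had 0.14, 0.44, -0.33 and 0.75 and did not pass. The calls of *Wee1*, *Rfc5* and *Lin9* were lost in the fit with the mouse as replicate block (adjusted p = 0.072, 0.051 and 0.08 from edgeR).

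Within the members, the value of the remainder over the difference went with the GC content of the transcript. Across the 40 members, which are not independent, Spearman's rho between the fitted value and GC content was 0.70, against 0.37 across 11385 genes. In mouse 1 it was 0.74 for members and 0.59 for all genes, in mouse 2 it was 0.05 and -0.28 and in mouse 3 it was 0.35 and 0.30. With transcript length the members had -0.52 and all genes -0.24. *Bub1*, *Cenpe* and *Mki67*, the members with the lowest values, have a GC content of 41.0%, 42.9% and 46.6%, and *Plk1*, *Cdc20* and *Foxm1*, which had positive values of 0.43, 0.43 and 0.46, have 56.0%, 55.6% and 54.6%. Other members departed from this order, as *Cenpa*, at 0.79, has 47.3% and *Aurkb*, at 0.03, has 52.5%. After the correction for GC content, chosen after seeing the data, *Bub1* was at -0.77, *Cenpe* at -0.81 and *Mki67* at -0.70, and *Plk1*, *Cdc20* and *Foxm1* were at 0.31, 0.32 and 0.35, each closer to 0 and with its sign kept. *Cenpa* was at 0.84 (adjusted p = 0.055 from edgeR), and 0 members were called.

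**Figure D5:**
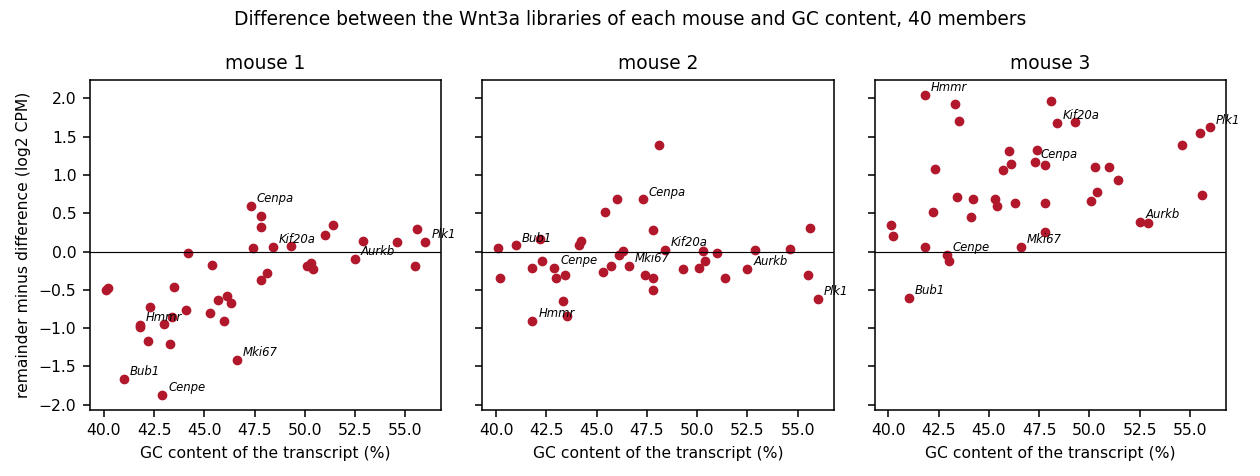
Remainder minus difference in log2 CPM (y axis) against the GC content of the transcript (x axis, %) for the 40 members in each mouse, with 8 members named. In mouse 1 the points rise with GC content (Spearman's rho 0.74) and most lie under 0, in mouse 2 they scatter around 0 (rho 0.05), and in mouse 3 nearly all lie above 0 (rho 0.35).

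The remainder was also set against IL-4 alone. No member passed the test, where 20.3% of all genes tested did (10.6% higher and 9.67% lower), and 2 had an unadjusted p under 0.05. The median was 0.10, and 0.26, -0.53 and 0.26 in mouse 1, 2 and 3. *Kif23* had the lowest value, -0.94 (95% interval from -1.75 to -0.13, adjusted p = 0.076 from edgeR), lower in 3 of 3 mice. *Kif23* and *Cenpe* were the 2 members with no overlap, where 35.9% of all genes had none. With the mouse as replicate block *Bub1b* and *Ccnb1* rose (adjusted p = 0.042 and 0.046, edgeR) and *Kif23* fell by 0.98 (adjusted p = 0.016, edgeR), where 18.6% of all genes passed, 9.81% higher and 8.83% lower. With only these groups in the fit, *Kif23* was called lower (adjusted p = 0.012, edgeR), where 9.07% of all genes were. Of the replication genes 5 were lower and 1 higher, with *Pcna*, the sliding clamp of the replication fork, at -0.73 and *Mcm6* at -0.60 (adjusted p = 0.00016 and 8.7e-05, edgeR), and *Rfc5* at 0.53 (adjusted p = 0.005, edgeR). Of the other mitosis genes *Spdl1* and *Haspin* were higher by 0.69 and 0.46 and *Mis18a* lower by -0.36 (adjusted p = 0.014, 0.026 and 0.029, edgeR). *Ccnd1* fell by 2.66 and *Myc* by 1.64 (adjusted p = 2.3e-07 and 1.3e-06, edgeR). Of the arrest list 6 were lower, with *Cdkn1c* and *Tfdp2* lowest at -1.20 and -0.52, and 1, *Btg1*, was higher at 0.40 (adjusted p = 0.0092, 0.023 and 0.0014, edgeR). *E2f1*, *Cdkn1a*, *Cdkn1b* and *Mybl2* had -0.08, 0.34, -0.16 and -0.51 and did not pass. The call of *Mis18a* was lost in the fit with the mouse as replicate block (adjusted p = 0.054 from edgeR).

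The last comparison asked whether the IL-4 effect on the members differed with and without Wnt3a, under both assignments of the Wnt3a libraries. With the remainder taken as Wnt3a+IL-4 and the difference as Wnt3a, 0 members passed, where 0.105% of all genes tested did (0.0403% higher and 0.0644% lower), 2 had an unadjusted p under 0.05 and DESeq2 called 0. The median interaction was -0.50, and 35 members had a negative value. It was -0.63, -0.78 and 0.08 in mouse 1, 2 and 3, and 0.22 without the difference library of mouse 1, so its direction depended on that library. *Ttk* had the lowest, -2.10 (adjusted p = 0.27 from edgeR), followed by *Bub1* at -1.74 (adjusted p = 0.37 from edgeR). With the assignment exchanged, 1 member, *Cenpa*, passed, where 7.33% of all genes did (2.91% higher and 4.42% lower). Its interaction was -1.5 (standard error 0.36, 95% interval from -2.32 to -0.68, adjusted p = 0.018, edgeR), negative in 3 of 3 mice, at -0.97, -1.31 and -2.35, and it was called in 9 of 15 settings that each left out a library or a mouse. It was not called without the untreated or IL-4 library of mouse 3, the difference library of mouse 2 or 3, the remainder library of mouse 1 or all libraries of mouse 3. Under the first assignment *Cenpa* had 0.08 (adjusted p = 0.96 from edgeR). The median over members was -0.57 with the assignment exchanged, and -0.16, -0.44 and -1.57 in mouse 1, 2 and 3. Of the 36 replication genes 10 were lower and 0 higher under it, from -2.25 for *Uhrf1* and -1.14 for *Tk1* to -0.61 for *Rrm1* and -0.74 for *Mcm6*. Of the other mitosis genes *Psrc1* and *Wee1* were lower, at -1.51 and -1.23, and *Ncapg2* was higher, at 1.71. Of the arrest list *Btg2* was higher, at 0.56.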

How the data were processed

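RNA-seq counts of 3 mice in 4 treatments were analysed. The deposited values were raw read counts per Ensembl gene. The submitters' processing notes name Trimmomatic 0.36, FastQC 0.11.7, STAR 2.6.0, SAMtools 1.9, HTSeq 0.11.1, DESeq2 1.24.0 and the mm10 build. In each mouse the difference was the Wnt3a column minus the Wnt3a+IL4 column, and the remainder the Wnt3a+IL4 column minus the difference; 0 of these counts were negative. The 12 libraries held between 13342492 and 17453377 counts, and low counts limit the precision of low genes.

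A gene was tested if 3 or more libraries held 10 or more counts of it (12421 genes). All libraries entered 1 fit of edgeR 4.0.16 (quasi-likelihood, TMM) in R 4.3.3, with Benjamini-Hochberg adjustment over all genes tested at 0.05. DESeq2 1.42.0 and other filters, scalings and libraries were alternatives. Scripts were tested on simulated data. The labels give the same mouse in each group, so the mouse as replicate block was fitted too. Across all genes tested, same-mouse libraries had correlations of deviations between -0.42 and 0.45 over 18 pairs, 6 of them over 0.1. Across the members these correlations ran from -0.21 to 0.79. The members' median deviation was positive in mouse 1 and negative in mouse 2 in every group.

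The rule for naming members took 10 chosen genes, plus in each comparison the 3 highest and 3 lowest of those called. Of other lists it took the 2 highest and 2 lowest called, and *E2f1*, *Mybl2*, *Cdkn1a* and *Cdkn1b*. Other genes named in the text, such as *Bub1*, *Ube2c*, *Racgap1*, *Kif4*, *Pbk*, *Ttk*, *Cenpe* and *Kif20a*, fall outside this rule. They are examples of a role or of extreme values and were not fixed in advance by it. The members and lists were chosen with earlier results of these data known. P-values of the main fit, which holds no mouse term, rest on the spread between 3 mice within groups, pooled over the 4 groups. The same mice recur in each group, and this fit leaves that pairing out. With the mouse as replicate block, p-values rest on the spread left after the mouse is taken out. Gene positions are from GENCODE on GRCm38, promoters from RefSeq on GRCm38.p6.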

Additional observations from a re-analysis of the deposited data

Results flagged for a closer look

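Under a single assignment of the Wnt3a libraries, and not under the opposite, *Cenpa* passed a test of whether the IL-4 effect differed with and without Wnt3a. With the difference libraries taken as Wnt3a+IL-4 and the remainder as Wnt3a, its interaction was -1.5 on the log2 scale (adjusted p = 0.018, edgeR), lower in 3 of 3 mice. With the opposite assignment it was 0.08 (adjusted p = 0.96 from edgeR). *Cenpa* was higher by 0.71 with IL-4 alone, and by 0.79 in the remainder than in the difference, and neither value passed. By its definition, the interaction of -1.5 subtracts both of these values, so shifts in the same direction add up in it. The labels do not say which assignment holds, and this was not tested. Of all genes tested, 0.105% passed the interaction test with the remainder as Wnt3a+IL-4 and 7.33% with the difference as Wnt3a+IL-4.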

How the results depend on the processing

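The alternatives were compared gene by gene for the genes picked by the naming rule above, *Kif23* and *Cenpa*. Other named genes, such as *Ccnd1*, *Myc*, *Bub1* and *Pbk*, were not compared in this way. No value compared changed its direction with a call, but some values that were not called changed sign. In the difference, *Foxm1*, *Plk1*, *Cdc20*, *Cdk1*, *Mki67* and *Birc5*, positive in the main fit, went down to -0.46, -0.33, -0.22, -0.13, -0.05 and -0.04. Over single genes, 2707 of the values under alternatives kept their side of the threshold, 93 came to pass it and 358 no longer passed it. The counts of members called were less stable. The share of all genes tested that was called the same way in the same setting stands in brackets. For IL-4 the members called higher were 11 (2.07%) with all genes of at least 1 count, 3 (2.46%) with only the groups compared and 2 (4.51%) with the mouse as replicate block and a GC content correction, the last chosen after seeing the data. For the difference they were 3 (12.3%) with DESeq2, 0 (9.11%) with library totals alone, 26 (7.25%) with all genes, where 1 (6.58%) was lower, 5 (10.9%) with the replicate block, 0 (7.24%) at an adjusted p under 0.01, 0 (3.44%) where the log2 change also had to reach 1 in size, 2 (15.1%) with the columns as labelled, 3 (17.3%) with the GC correction and 9 (17.3%) with the block and GC, where 1 (14.8%) was lower. For the remainder they were 0 (10.4%) with library totals, 25 (7.97%) with all genes, where 1 (7.53%) was lower, 1 (10.4%) with only the groups compared, 9 (12.5%) with the replicate block, where 1 (10.5%) was lower, 0 (9.21%) and 0 (4.16%) at the stricter p and fold, and 12 (18.5%) with the block and GC, where 1 (15.9%) was lower. Between remainder and difference they were 1 (3.24%) with DESeq2, 2 (2.45%) with all genes, where 3 (3.76%) were lower, 1 (2.48%) with the replicate block and 1 (4.58%) with the block and GC. Between remainder and IL-4 they were 4 (6.35%) with all genes, where 2 (6.18%) were lower, 2 (9.81%) with the replicate block, where 1 (8.83%) was lower, and 2 (14.9%) with the block and GC, where 1 (13.6%) was lower, and 1 (9.07%) was lower with only the groups compared. For the interaction 7 (1.56%) were lower with all genes, and with the assignment exchanged 12 (3.14%) with all genes, 2 (4.19%) with the replicate block, 0 (2.45%) at an adjusted p under 0.01, 0 (1.67%) with the columns as labelled and 3 (6.89%) with the block and GC. The cause was not tested. The homology region letters were in 82.9% of member promoters in the whole 300 bases.

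Leaving out 1 library or mouse, the members' median ranged from 0.36 to 0.87 for IL-4, -0.15 to 0.96 for the difference, 0.39 to 1.04 for the remainder, -0.24 to 0.73 between remainder and difference, -0.18 to 0.34 between remainder and IL-4, -0.88 to 0.22 for the interaction and -1.46 to -0.17 for the exchanged one. The members called higher ranged from 0 to 2, 0 to 4, 0 to 15, 0 to 1 and 0 to 2 in the first 5, and those lower from 0 to 1 in the difference, the remainder and between remainder and IL-4, and from 0 to 3 in the exchanged interaction.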
